A study of Mus musculus with 5 samples.

Results

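The transcription factor genes followed here set effector, memory and exhaustion programmes in lymphocytes, and they were measured in 5 libraries of sorted mouse spleen T cells. They are the T-box genes Eomes and Tbx21, the zinc finger genes Zeb1 and Zeb2, the HMG box genes Tox and Tox2, the basic helix-loop-helix gene Bhlhe40, and Zfp683, which encodes Hobit. The 8 were picked by gene symbol from known function, out of 35275 genes in the deposited table. Earlier results of these data were known when they were picked, so their counts beside all genes are a description. All 8 had enough reads to be tested. The libraries were 1 of CD8 Treg, 2 of CD4 Treg and 2 of cells labelled CD49lo. All came from spleens of wild-type C57BL/6 mice 3 months old. A CD8 enrichment of the lymphocytes came before staining and sorting, and total RNA was made into standard Illumina libraries. The labels do not spell out CD49lo, and the series title names a CD8 effector population beside the regulatory populations. Neither the sort gates nor the animals behind each replicate are given, so the spread on which p-values rest may be technical. Every CD8 Treg value rests on n = 1.

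Eomes and T-bet, the protein of Tbx21, are closely related T-box activators that drive cytotoxic and interferon gamma programmes in CD8 T cells and NK cells. T-bet works with the repressor Zeb2 in terminal effector cells, whereas Zeb1, a close relative of Zeb2 that binds the same E-box sequence, favours memory cells. Tox is needed in the thymus for CD4 lineage cells and sustains the exhausted programme of chronically stimulated CD8 T cells, and Tox2 is a relative found in follicular helper T cells. Bhlhe40 is induced by T cell receptor signals and restrains IL-10 in T cells, and Hobit keeps lymphocytes resident in mouse tissues together with Blimp-1.

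The libraries held 6073243 reads in genes in CD8 Treg, 6203090 and 5441444 in CD4 Treg, and 8354971 and 6564411 in CD49lo. The labelled lineages were checked against markers. Summed over Cd8a, Cd8b1 and Runx3, the level was 804 RPKM (reads divided by gene length and sequencing depth) in CD8 Treg, 36.6 and 31.6 RPKM in CD4 Treg, and 989 and 1102 RPKM in CD49lo. Summed over 8 T cell markers, it was 2397 RPKM in CD8 Treg, 3184 and 3143 RPKM in CD4 Treg, and 2554 and 2648 RPKM in CD49lo. Foxp3, the factor that defines CD4 Treg, was at 0.387 RPKM in CD8 Treg, 146 RPKM in both CD4 Treg libraries, and 1.66 and 0.795 RPKM in CD49lo. Markers of NK cells, B cells and myeloid cells were higher in CD8 Treg and CD49lo than in CD4 Treg. The 10 NK cell markers summed to 153 RPKM in CD8 Treg, 7.59 and 2.19 RPKM in CD4 Treg, and 182 and 283 RPKM in CD49lo. The libraries also differed in sex-linked transcripts. The Y-linked gene Ddx3y was at 18.3 RPKM in CD8 Treg, 0.0701 and 0 RPKM in CD4 Treg, and 18.3 and 27.4 RPKM in CD49lo, while Xist was at 0.0834 RPKM in CD8 Treg, 35.5 and 27.2 RPKM in CD4 Treg, and 0.0269 and 0 RPKM in CD49lo. Sex and population cannot be told apart wherever CD4 Treg are compared.

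The stretches just before the transcription start of the 3 members with the clearest differences are shown here so that their upstream sequence can be read beside the values. They are from RefSeq (GRCm38.p6, the mm10 assembly), 250 bases each, 5′ to 3′ on the gene's strand, with capitals for any match to the T-box motif GGTGTGA, the Zeb E-box CACCTG or the Bhlhe40 E-box CACGTG on either strand. For Zeb2, which has 4 annotated starts, the outermost is shown. The positions are chr9:118477939-118478188 on the plus strand for Eomes, chr11:97115332-97115581 on the minus strand for Tbx21, and chr2:45117443-45117692 on the minus strand for Zeb2.
Eomes: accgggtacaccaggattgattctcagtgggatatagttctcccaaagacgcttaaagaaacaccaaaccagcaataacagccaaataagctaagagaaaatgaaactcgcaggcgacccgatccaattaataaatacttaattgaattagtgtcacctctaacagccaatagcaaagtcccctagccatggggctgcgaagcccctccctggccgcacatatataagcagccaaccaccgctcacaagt
Tbx21: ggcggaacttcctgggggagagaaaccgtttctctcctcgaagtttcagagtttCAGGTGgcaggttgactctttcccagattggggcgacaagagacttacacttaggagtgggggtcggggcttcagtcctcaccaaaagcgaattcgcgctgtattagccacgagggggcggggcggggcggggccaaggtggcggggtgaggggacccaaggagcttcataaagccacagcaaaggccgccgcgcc
Zeb2: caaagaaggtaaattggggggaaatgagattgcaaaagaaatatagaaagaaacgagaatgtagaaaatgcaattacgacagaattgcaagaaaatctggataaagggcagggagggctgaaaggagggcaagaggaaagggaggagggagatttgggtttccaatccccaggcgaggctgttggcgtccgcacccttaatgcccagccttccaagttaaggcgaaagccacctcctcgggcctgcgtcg
The capitals in Tbx21, CAGGTG, are the reverse complement of CACCTG and begin 196 bases before the start. The Eomes and Zeb2 windows hold none of the 3 motifs, and neither do the other 3 Zeb2 windows. Of 32851 mouse windows of the same length, 17.2% hold CACCTG or CAGGTG, 3.33% hold GGTGTGA or TCACACC, and 6.02% hold CACGTG. A match is a match of letters and no evidence of binding. Promoter entries were found for 4 members (Eomes, Tbx21, Zeb2 and Tox2), and none for Zeb1, Tox, Bhlhe40 and Zfp683.

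The 8 genes split the 3 populations in different ways. CD8 Treg carried much Eomes and Tbx21, as CD49lo cells did, but less Zeb2 and less Bhlhe40 than they. CD4 Treg carried little Eomes, Tbx21, Zeb2 and Zfp683 and more Tox and Tox2. Differences were tested with limma on log2(scaled RPKM + 0.5) in 1 model over all 5 libraries, which assumes that the single CD8 Treg library varies like the replicated groups. A gene was called at a p-value under 0.05 after Benjamini-Hochberg adjustment over all 13298 genes tested. The added 0.5 pulls in the fold changes of genes with low RPKM. The 3 comparisons share libraries, so they are not independent of each other.

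Set against CD49lo, CD8 Treg had 2 of the 8 genes lower (Zeb2 and Bhlhe40), and 6 did not pass, where 5.04% of all genes tested were called (3.4% lower and 1.64% higher). None of the 8 was called higher by limma. At an unadjusted p under 0.05 in limma, Eomes and Zeb1 were higher, and Zeb2, Bhlhe40, Tox2 and Zfp683 were lower. With limma-voom on the recovered reads, 1 was called higher, Eomes, and 2 were called lower, Zeb2 and Bhlhe40. The median log2 fold change was −0.94 over the 8 genes and −0.04 over all genes tested. Without the scaling factor the median over all genes was −0.16 instead. The share of calls that were higher was 32.5%, and it moved to 20.6% without the scaling factor, 51.1% with a filter of 1 RPKM, 51.4% with limma-voom and 85.6% with no filter.

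In CD4 Treg against CD49lo, 3 of the 8 genes rose (Zeb1, Tox and Tox2), 4 fell (Eomes, Tbx21, Zeb2 and Zfp683) and 1, Bhlhe40, did not pass, where 22.1% of all genes tested were called (9.39% higher and 12.7% lower). The median log2 fold change was −1.97 over the 8 genes and −0.03 over all genes tested. Between CD8 Treg and CD4 Treg, 3 rose (Eomes, Tbx21 and Zeb2), 3 fell (Tox, Tox2 and Bhlhe40) and 2 did not pass, where 16.6% of all genes tested were called (8.37% higher and 8.21% lower). The median log2 fold change there was 0.86 over the 8 genes and 0.02 over all genes tested.

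**Figure D1:**
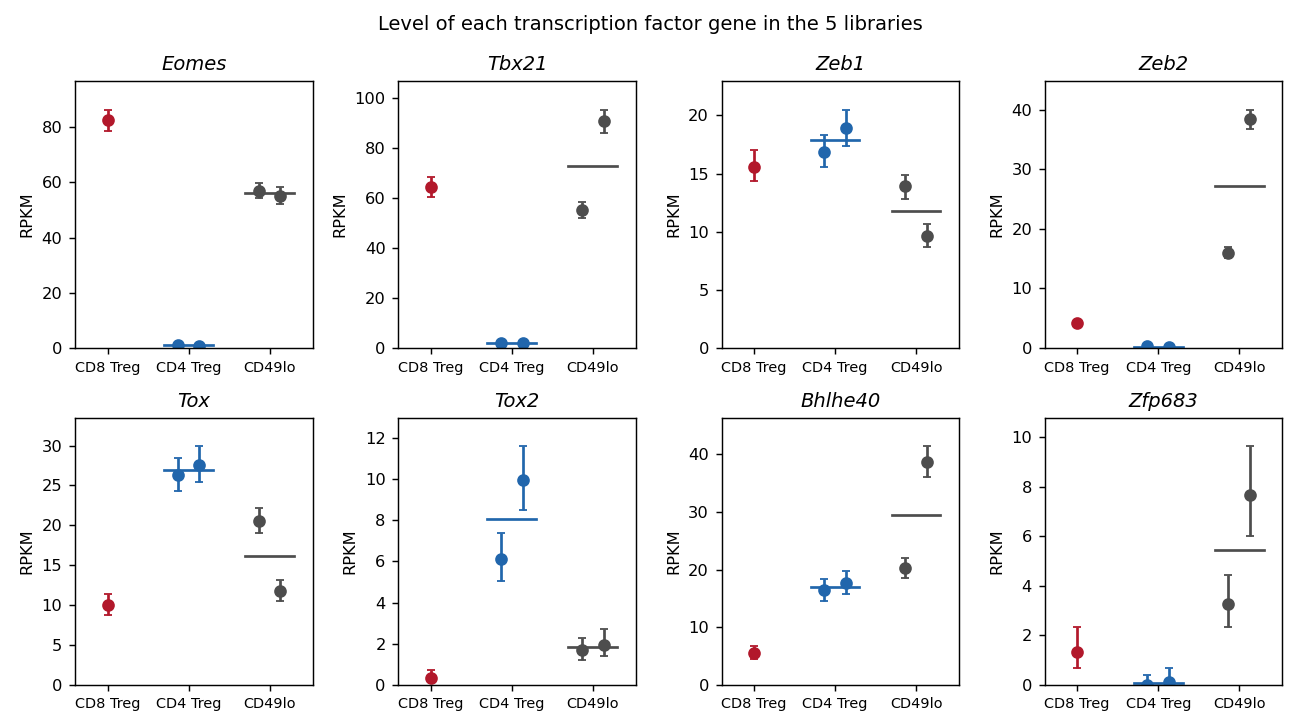
RPKM of each of the 8 genes in each library, 1 panel per gene with its own axis from 0; each point is a library of CD8 Treg (1), CD4 Treg (2) or CD49lo (2), bars are 95% Poisson intervals of its reads and lines are means of 2 libraries. Eomes and Tbx21 lie near 0 only in CD4 Treg, Tox2 is highest in CD4 Treg, and Zeb2, Bhlhe40 and Zfp683 are highest in CD49lo, where the replicates stand apart.

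Eomes (ENSMUSG00000032446, mm10 chromosome 9, 118478212 to 118486132, plus strand), which supports cytotoxic and memory CD8 T cells, was the most abundant of the 8 in CD8 Treg. It stood at 82.4 RPKM in CD8 Treg, 1.18 and 0.929 RPKM in CD4 Treg, and 57.0 and 55.2 RPKM in CD49lo. These values rest on 1781 reads in CD8 Treg, 26 and 18 in CD4 Treg, and 1695 and 1291 in CD49lo. The CD8 Treg library lay above every other library and both CD4 Treg libraries lay far below the rest. Within CD8 Treg, 95.2% of the genes tested had a lower RPKM than Eomes, against 21.1% and 18.7% in CD4 Treg and 91.6% and 91.2% in CD49lo.

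The mean of Eomes was 1.05 ± 0.175 RPKM in CD4 Treg and 56.1 ± 1.23 RPKM in CD49lo (SD, n = 2 each). Its log2 fold change was −5.16 ± 0.16 in CD4 Treg against CD49lo (SE; limma, adjusted p = 4.72e-07) and 5.85 ± 0.20 in CD8 Treg against CD4 Treg (adjusted p = 1.15e-06). Against CD49lo, CD8 Treg had a fold change of 0.69 ± 0.20, with a 95% interval of 0.23 to 1.14, which did not pass in limma (adjusted p = 0.095). With limma-voom on the recovered reads the same fold change of 0.69 had an adjusted p of 0.00476.

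Tbx21 (ENSMUSG00000001444, chromosome 11, 97098071 to 97115331, minus strand) encodes T-bet, the factor of type 1 effector cells. It was at 64.3 RPKM in CD8 Treg, 2.20 and 1.99 RPKM in CD4 Treg, and 55.2 and 90.5 RPKM in CD49lo. The reads behind these levels were 972 in CD8 Treg, 34 and 27 in CD4 Treg, and 1148 and 1478 in CD49lo. The CD8 Treg library fell between the CD49lo libraries. With so few libraries, groups can lie apart without a difference. Zeb1 in CD8 Treg and CD4 Treg did so at a log2 fold change of −0.08. The share of all genes tested whose groups lay apart was not computed, so a lack of overlap is only a description for any of the 8 genes. The mean was 2.10 ± 0.148 RPKM in CD4 Treg and 72.9 ± 24.9 RPKM in CD49lo (SD, n = 2 each).

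For Tbx21 the log2 fold change was −4.75 ± 0.23 in CD4 Treg against CD49lo (SE; limma, adjusted p = 3.27e-06) and 4.75 ± 0.28 in CD8 Treg against CD4 Treg (adjusted p = 1.57e-05). For CD8 Treg against CD49lo it was 0.00 ± 0.28 (adjusted p = 1), with a 95% interval of −0.63 to 0.63, and no direction can be given, since the value was −0.14 without the scaling factor and −0.34 without CD49lo replicate 1. The interval leaves room for a difference of either sign of about the size seen between the CD49lo replicates, 0.68 on the log2 scale.

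The calls of Eomes and Tbx21 against CD4 Treg and in CD4 Treg against CD49lo held in every alternative run and in every fit without 1 library. NK cells also carry both factors, and the NK cell markers moved with them: of 10, 9 rose in CD8 Treg against CD4 Treg and 7 fell in CD4 Treg against CD49lo, and their median log2 fold change in CD8 Treg against CD49lo was −0.29. Ncr1, which encodes NKp46, was at 18.8 RPKM in CD8 Treg, 0 RPKM in both CD4 Treg libraries, and 5.28 and 7.03 RPKM in CD49lo. The adaptor gene Tyrobp was at 42.3 RPKM in CD8 Treg, 0.286 and 0.326 RPKM in CD4 Treg, and 71.3 and 86.4 RPKM in CD49lo. The number of the 10 markers at 0 was 0 in CD8 Treg, 1 and 7 in CD4 Treg, and 0 in both CD49lo libraries, and the part of these markers in the T-box results was not tested. In bulk RNA, fewer cells with a transcript and less of it per cell cannot be told apart.

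Per length, Eomes stood above Tbx21 in CD8 Treg, with a log2 ratio of 0.35 on RPKM + 0.5. The ratio was −0.69 and −0.80 in CD4 Treg, and 0.04 and −0.71 in CD49lo. The CD8 Treg value was the highest of the 5, but the CD49lo replicates differed from each other by more than CD8 Treg differed from the nearer of them. CD49lo replicate 2 lay close to CD4 Treg in this ratio although both genes were high there and low in CD4 Treg.

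Zeb2 (ENSMUSG00000026872, chromosome 2, 44983634 to 45117395, minus strand), a repressor that acts in terminal effector cells, was lowest in CD4 Treg, intermediate in CD8 Treg and highest in CD49lo. It was at 4.14 RPKM in CD8 Treg, 0.283 and 0.222 RPKM in CD4 Treg, and 16.0 and 38.4 RPKM in CD49lo. These levels rest on 229 reads in CD8 Treg, 16 and 11 in CD4 Treg, and 1219 and 2297 in CD49lo. No groups overlapped, and the higher CD49lo library was 2.4-fold above the lower. In CD8 Treg 37.9% of the genes tested were below Zeb2, against 10.8% and 9.86% in CD4 Treg and 68.1% and 86.4% in CD49lo.

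The mean of Zeb2 was 0.252 ± 0.0433 RPKM in CD4 Treg and 27.2 ± 15.8 RPKM in CD49lo (SD, n = 2 each). Zeb2 was lower in CD8 Treg than in CD49lo, with a log2 fold change of −2.32 ± 0.42 and a 95% interval of −3.29 to −1.36 (SE; limma, adjusted p = 0.0169). It was higher in CD8 Treg than in CD4 Treg by 2.72 ± 0.42 (adjusted p = 0.00278) and lower in CD4 Treg than in CD49lo, at −5.04 ± 0.35 (adjusted p = 2.15e-05). The first call was lost in each fit without 1 library, at −2.32 without CD4 Treg replicate 1 or 2 (limma, adjusted p = 0.133 and 0.101), −2.93 without CD49lo replicate 1 (adjusted p = 0.179) and −1.72 without CD49lo replicate 2 (adjusted p = 0.229). The second was lost at 2.78 without CD4 Treg replicate 1 (adjusted p = 0.0647) and 2.71 without CD49lo replicate 1 or 2 (adjusted p = 0.0631 and 0.0719), and these fits leave 1 residual degree of freedom in place of 2.

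Zeb2 is also transcribed in NK cells, monocytes and dendritic cells, so markers of other cells were set beside it. Markers of monocytes, macrophages and neutrophils (11 of the 12 listed were in the table) summed to 310 RPKM in CD8 Treg, 25.4 and 7.05 RPKM in CD4 Treg, and 550 and 511 RPKM in CD49lo. The number of those at 0 was 1 in CD8 Treg, 2 and 7 in CD4 Treg, and 0 and 1 in CD49lo. Much of the gap between CD8 Treg and CD49lo came from Lyz2, the lysozyme gene of myeloid cells, at 70.8 RPKM in CD8 Treg, 4.20 and 1.89 RPKM in CD4 Treg, and 224 and 271 RPKM in CD49lo. Without Lyz2 the sum was 239 RPKM in CD8 Treg, 21.2 and 5.16 RPKM in CD4 Treg, and 326 and 240 RPKM in CD49lo. Of 10 myeloid markers tested, 1 (Lyz2) fell in CD8 Treg against CD49lo, with fold changes above 0 for 5 and below 0 for 5 and a median of −0.08. In CD4 Treg against CD49lo 9 of these fell, and in CD8 Treg against CD4 Treg 7 rose.

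The 10 B cell markers summed to 93.4 RPKM in CD8 Treg, 10.3 and 13.2 RPKM in CD4 Treg, and 158 and 218 RPKM in CD49lo. In CD8 Treg against CD49lo limma called 0 of them (median −0.94), with 3 lower at an unadjusted p under 0.05 and 1 called lower by limma-voom, while all 10 fell in CD4 Treg against CD49lo and all 10 rose in CD8 Treg against CD4 Treg. Limma also called 0 of the 10 NK cell markers in CD8 Treg against CD49lo, with 2 higher and 1 lower at an unadjusted p under 0.05 and 2 called higher by limma-voom. The 10 dendritic cell markers summed to 130 RPKM in CD8 Treg, 59.9 and 44.6 RPKM in CD4 Treg, and 310 and 337 RPKM in CD49lo. Of these, 4 fell in CD8 Treg against CD49lo and 6 fell in CD4 Treg against CD49lo. In CD8 Treg against CD4 Treg, 3 rose and 2 fell. All 10 had a fold change below 0 in CD8 Treg against CD49lo (median −1.55). There 8 were lower at an unadjusted p under 0.05 in limma, and limma-voom called 3 lower. The part of these transcripts in the Zeb2 result was not tested.

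**Figure D2:**
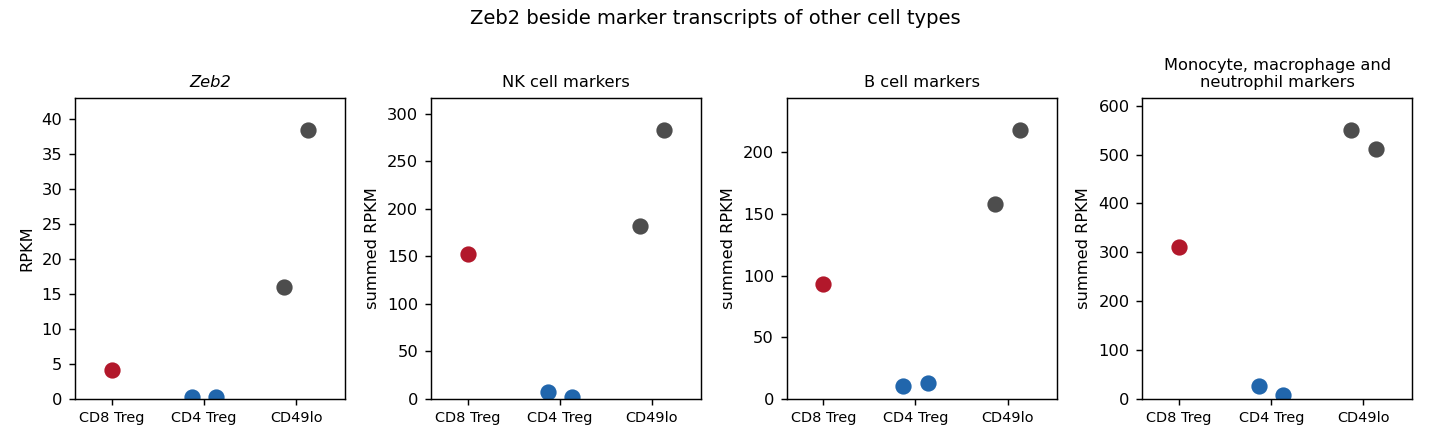
RPKM of Zeb2 in each library (first panel) beside the summed RPKM of markers of NK cells, B cells, and monocytes, macrophages and neutrophils, each point a library and each axis starting at 0. All 3 marker sums are lowest in CD4 Treg, and CD8 Treg lies below both CD49lo libraries in each. Without Lyz2, singled out after its values were seen, the myeloid sum is 239 RPKM in CD8 Treg and 326 and 240 RPKM in CD49lo. Dendritic cell markers, not plotted, sum to 130 RPKM in CD8 Treg and 310 and 337 RPKM in CD49lo.

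An annotated antisense transcript, Zeb2os, overlaps Zeb2. It had 3 reads in CD8 Treg, 0 and 3 in CD4 Treg, and 40 and 25 in CD49lo. Whether counting used strand is not given in the sources used here, so reads of Zeb2 and Zeb2os may not be separate, but Zeb2 had more than 10 times as many reads as Zeb2os in CD49lo. Zeb1, Tox and Bhlhe40 each have an overlapping antisense or noncoding gene too, with at most 15 reads in any library.

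Zeb1 (ENSMUSG00000024238, chromosome 18, 5591860 to 5775467, plus strand), which acts against Zeb2 in memory T cells, varied over a far smaller range. It was at 15.6 RPKM in CD8 Treg, 16.9 and 18.9 RPKM in CD4 Treg, and 13.9 and 9.66 RPKM in CD49lo, from 368 to 672 reads a library. CD49lo replicate 2 was the lowest library and CD4 Treg replicate 2 the highest. The mean was 17.9 ± 1.39 RPKM in CD4 Treg and 11.8 ± 2.97 RPKM in CD49lo (SD, n = 2 each).

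Zeb1 rose in CD4 Treg against CD49lo by 0.63 ± 0.18 on the log2 scale (SE; limma, adjusted p = 0.0339). That call was lost at 0.70 and 0.57 without CD4 Treg replicates 1 and 2 (limma, adjusted p = 0.175 and 0.246), at 0.90 without CD49lo replicate 1 (adjusted p = 0.0835) and at 0.37 without CD49lo replicate 2 (adjusted p = 0.196). The log2 fold change was 0.55 ± 0.22 in CD8 Treg against CD49lo (95% interval 0.05 to 1.05, adjusted p = 0.215) and −0.08 ± 0.22 in CD8 Treg against CD4 Treg (95% interval −0.58 to 0.42, adjusted p = 0.847), and neither passed.

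Set against Zeb1 in the same library, Zeb2 was lower in CD8 Treg and in CD4 Treg, and higher in CD49lo. The log2 ratio of Zeb2 to Zeb1 on RPKM + 0.5 was −1.80 in CD8 Treg, −4.48 and −4.75 in CD4 Treg, and 0.20 and 1.94 in CD49lo. The ratio was above 0 in both CD49lo libraries, by little in replicate 1, and below 0 in every CD8 Treg and CD4 Treg library. CD8 Treg is a single library, so its spread in this ratio is not known, and the CD49lo replicates stood well apart. The CD4 Treg ratios depend on the added value, at −5.48 and −5.88 with 0.1 added, since Zeb2 is below 0.5 RPKM there.

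**Figure D3:**
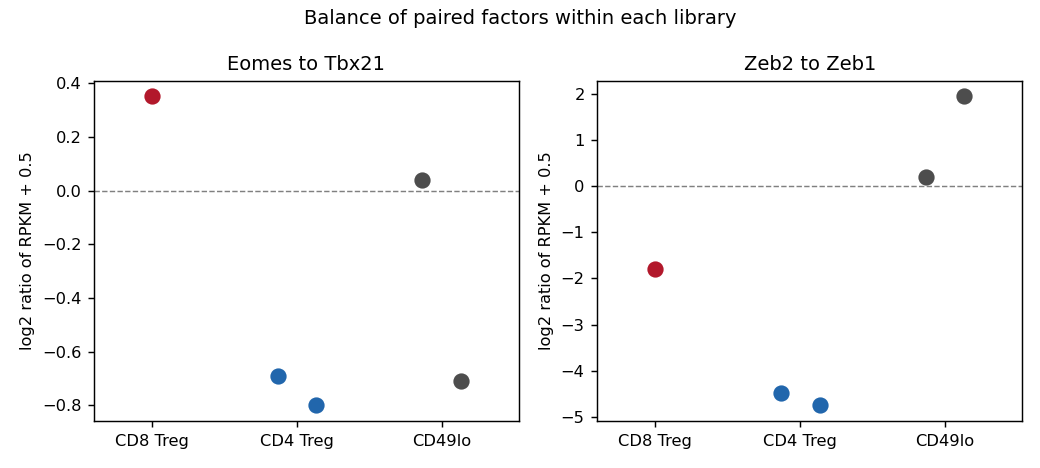
Log2 ratio of Eomes to Tbx21 and of Zeb2 to Zeb1 within each library, on RPKM + 0.5; each point is a library and the line at 0 marks equal levels per length. The Zeb2 to Zeb1 ratio is above 0 only in CD49lo, and the Eomes to Tbx21 ratio is highest in CD8 Treg, at 0.35.

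Tox (ENSMUSG00000041272, chromosome 4, 6686353 to 6991557, minus strand), the factor of exhausted CD8 T cells, was the most abundant of the 8 in both CD4 Treg libraries. It was at 10 RPKM in CD8 Treg, 26.3 and 27.6 RPKM in CD4 Treg, and 20.5 and 11.7 RPKM in CD49lo, from 241 to 680 reads a library. CD8 Treg was the lowest library, close to CD49lo replicate 2. The mean was 26.9 ± 0.958 RPKM in CD4 Treg and 16.1 ± 6.23 RPKM in CD49lo (SD, n = 2 each).

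Tox rose in CD4 Treg against CD49lo by 0.80 ± 0.23 on the log2 scale (SE; limma, adjusted p = 0.0386). It fell in CD8 Treg against CD4 Treg, at −1.28 ± 0.29 (adjusted p = 0.0162), and in CD8 Treg against CD49lo it was −0.48 ± 0.29 and did not pass (95% interval −1.13 to 0.17, adjusted p = 0.42). Without CD4 Treg replicates 1 and 2 and CD49lo replicates 1 and 2 in turn, the first was 0.83, 0.77, 1.2 and 0.40 (limma, adjusted p = 0.235, 0.244, 0.0556 and 0.139) and the second −1.31, −1.25, −1.28 and −1.28 (adjusted p = 0.152, 0.143, 0.0613 and 0.0576), so that both calls were lost each time.

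Tox2 (ENSMUSG00000074607, chromosome 2, 163203125 to 163324170, plus strand), a relative of Tox found in follicular helper T cells, was mainly a CD4 Treg transcript here. It was at 0.335 RPKM in CD8 Treg, 6.13 and 9.98 RPKM in CD4 Treg, and 1.67 and 1.96 RPKM in CD49lo. The CD8 Treg value rests on 6 reads, with an exact 95% Poisson interval of 0.123 to 0.730 RPKM that covers counting error only, against 112 and 160 reads in CD4 Treg and 41 and 38 in CD49lo. No groups overlapped. The mean was 8.05 ± 2.72 RPKM in CD4 Treg and 1.81 ± 0.212 RPKM in CD49lo (SD, n = 2 each).

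Tox2 rose in CD4 Treg against CD49lo by 1.87 ± 0.35 on the log2 scale (SE; limma, adjusted p = 0.00486) and fell in CD8 Treg against CD4 Treg, at −3.27 ± 0.43 (adjusted p = 0.00113). The log2 fold change in CD8 Treg against CD49lo was −1.40 ± 0.43 and did not pass (95% interval −2.37 to −0.42, adjusted p = 0.111). The first call was lost at 1.55 without CD4 Treg replicate 2 (limma, adjusted p = 0.105) and at 1.79 and 1.95 without CD49lo replicates 1 and 2 (adjusted p = 0.164 and 0.158), and the second at −3.26 without either CD49lo replicate (adjusted p = 0.0949 and 0.102).

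Bhlhe40 (ENSMUSG00000030103, chromosome 6, 108660629 to 108666925, plus strand), a factor induced by T cell receptor signals, was lowest in CD8 Treg. It was at 5.50 RPKM in CD8 Treg, 16.4 and 17.7 RPKM in CD4 Treg, and 20.2 and 38.6 RPKM in CD49lo. These values rest on 104 reads in CD8 Treg, 316 and 300 in CD4 Treg, and 526 and 789 in CD49lo. CD8 Treg lay below all other libraries, and both CD4 Treg libraries lay just below the lower CD49lo library. The mean was 17.0 ± 0.952 RPKM in CD4 Treg and 29.4 ± 13.0 RPKM in CD49lo (SD, n = 2 each).

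Bhlhe40 fell in CD8 Treg against CD49lo, with a log2 fold change of −2.12 ± 0.32 and a 95% interval of −2.83 to −1.40 (SE; limma, adjusted p = 0.00716), and in CD8 Treg against CD4 Treg, at −1.44 ± 0.32 (adjusted p = 0.0144). In CD4 Treg against CD49lo it was −0.67 ± 0.26 and did not pass (95% interval −1.26 to −0.09, adjusted p = 0.1). Without CD4 Treg replicates 1 and 2 and CD49lo replicates 1 and 2 in turn, the first was −2.12, −2.11, −2.56 and −1.67 (limma, adjusted p = 0.104, 0.0749, 0.134 and 0.157) and the second −1.49, −1.40, −1.44 and −1.44 (adjusted p = 0.139, 0.131, 0.0655 and 0.0715), so that both calls were lost each time.

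Zfp683 (ENSMUSG00000049410, chromosome 4, 134053838 to 134058996, plus strand), the Hobit gene of tissue-resident lymphocytes, was nearly absent from CD4 Treg reads. It was at 1.34 RPKM in CD8 Treg, 0 and 0.125 RPKM in CD4 Treg, and 3.25 and 7.66 RPKM in CD49lo. The reads were 12 in CD8 Treg, 0 and 1 in CD4 Treg, and 40 and 74 in CD49lo, so that the CD8 Treg level has an exact 95% Poisson interval of 0.694 to 2.35 RPKM and the 0 in CD4 Treg replicate 1 allows up to 0.329 RPKM by the floor of 3 reads and 0.404 RPKM by the two-sided Poisson interval. The groups did not overlap. The CD49lo mean was 5.46 ± 3.12 RPKM (SD, n = 2).

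Zfp683 fell in CD4 Treg against CD49lo, with a log2 fold change of −3.27 ± 0.51 (SE; limma, adjusted p = 0.00179), lost at −2.72 without CD49lo replicate 2 (adjusted p = 0.0579). As pooled reads scaled to depth, the 1 read in CD4 Treg against 114 in CD49lo gave a ratio of 0.0112, with an exact 95% interval of 0.000282 to 0.0639 for counting error. The fold change in CD8 Treg against CD4 Treg was 1.80 ± 0.62 and did not pass (95% interval 0.39 to 3.21, limma, adjusted p = 0.0872). It was 3.36 with 0.1 added in place of 0.5 and then passed (adjusted p = 0.0458). Against CD49lo, the value in CD8 Treg was −1.48 ± 0.62 and did not pass (95% interval −2.89 to −0.07, adjusted p = 0.239).

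**Figure D4:**
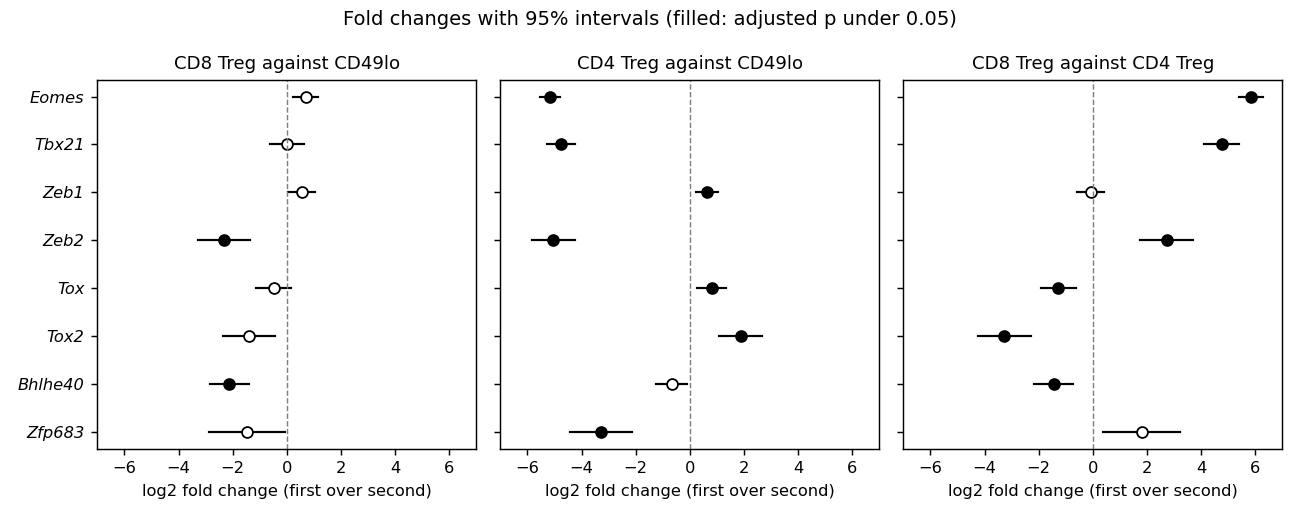
Log2 fold change of each of the 8 genes in the 3 comparisons, with 95% intervals from limma; the line at 0 marks no difference and filled points are called at an adjusted p under 0.05. Zeb2 and Bhlhe40 are called lower in CD8 Treg against CD49lo, and Eomes, Tbx21 and Zeb2 lie between −5.16 and −4.75 in CD4 Treg against CD49lo and between 2.72 and 5.85 in CD8 Treg against CD4 Treg.

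The order of the 8 genes by RPKM was the same in both CD4 Treg libraries, with Tox first, followed by Zeb1, Bhlhe40, Tox2, Tbx21, Eomes, Zeb2 and Zfp683. In CD8 Treg it was Eomes, Tbx21, Zeb1, Tox, Bhlhe40, Zeb2, Zfp683 and Tox2. In CD49lo replicate 1 it was Eomes, Tbx21, Tox, Bhlhe40, Zeb2, Zeb1, Zfp683 and Tox2, and in replicate 2 it was Tbx21, Eomes, Bhlhe40, Zeb2, Tox, Zeb1, Zfp683 and Tox2. Eomes and Tbx21 changed places between the CD49lo replicates, so their order there lies within the spread. Zfp683 and Tox2 were the lowest pair in CD8 Treg and in both CD49lo libraries.

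The CD49lo replicates differed in most of these genes. Replicate 2 exceeded replicate 1 by 1.21 on the log2 scale for Zeb2, 1.09 for Zfp683, 0.89 for Bhlhe40 and 0.68 for Tbx21. It was below replicate 1 for Tox (−0.81), Zeb1 (−0.52) and, by little, Eomes (−0.07). Across all genes tested the median absolute difference between these replicates was 0.249, and 95.5% of genes differed by less than Zeb2 did and 16.3% by less than Eomes did. In CD4 Treg the median was 0.205, and the largest difference among the 8 genes was that of Tox2, at 0.65. The NK receptor gene Klre1 was at 22.3 RPKM in CD49lo replicate 1 and 109 RPKM in replicate 2. The other 9 NK cell markers summed to 160 and 174 RPKM in the same libraries. Of those 9, Fcer1g was lower in replicate 2 (59.5 and 38.6 RPKM), and all the others were higher. Klrb1c was at 5.29 and 12.4 RPKM, and Tyrobp at 71.3 and 86.4 RPKM. The part of these transcripts in the spread was not tested.

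Genes that these factors are known to act with or on were read from lists, by the number called and the median. The lists too were chosen with earlier results of these data known. Of 15 type 1 effector genes tied to T-bet and Eomes, 2 rose and 1 fell in CD8 Treg against CD49lo (median −0.28), 1 rose and 13 fell in CD4 Treg against CD49lo (median −3.34), and 9 rose and 1 fell in CD8 Treg against CD4 Treg (median 2.29). The genes that rose in CD8 Treg against CD49lo were Il2rb, the IL-2 and IL-15 receptor chain that Eomes supports (1.18 ± 0.12; limma, adjusted p = 0.00144), and the IL-18 receptor gene Il18r1 (1.19 ± 0.18, adjusted p = 0.00835). Il2rb was at 302 RPKM in CD8 Treg, 267 and 277 RPKM in CD4 Treg, and 152 and 141 RPKM in CD49lo, and it was the gene of the list that rose in CD4 Treg. Granzyme B (Gzmb) fell in CD8 Treg against CD49lo, at −4.47 ± 0.45 (adjusted p = 0.00147), with 8.59 RPKM in CD8 Treg, 5.80 and 4.28 RPKM in CD4 Treg, and 137 and 353 RPKM in CD49lo. Nkg7, a granule membrane protein gene, was at 218 RPKM in CD8 Treg, 5.32 and 6.91 RPKM in CD4 Treg, and 275 and 373 RPKM in CD49lo.

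Of 10 terminal effector genes tied to T-bet and Zeb2, 5 fell in CD8 Treg against CD49lo (median −2.36), 9 fell in CD4 Treg against CD49lo (median −3.87), and 5 rose and 1 fell in CD8 Treg against CD4 Treg (median 2.07). The 5 were Gzmb, the inhibitory receptor gene Klrg1, the fractalkine receptor gene Cx3cr1, Fgl2 and granzyme A (Gzma). Klrg1, a marker of terminal effectors, was at 0.582 RPKM in CD8 Treg, 13.5 and 11.7 RPKM in CD4 Treg, and 34.5 and 141 RPKM in CD49lo, and fell in CD8 Treg against CD49lo, at −5.93 ± 0.64 (SE; limma, adjusted p = 0.00186), and against CD4 Treg, at −3.53 ± 0.64 (adjusted p = 0.00586). Cx3cr1 was at 2.34 RPKM in CD8 Treg, 0.130 and 0.197 RPKM in CD4 Treg, and 35.0 and 76.8 RPKM in CD49lo. It followed the order of Zeb2 across the populations.

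Of 10 memory genes that are lower in cells driven by Zeb2, 3 rose in CD8 Treg against CD49lo (median 0.68), 6 rose and 2 fell in CD4 Treg against CD49lo (median 0.70), and 5 rose and 2 fell in CD8 Treg against CD4 Treg (median 0.30). Those that rose in CD8 Treg against CD49lo included the survival gene Bcl2 (1.69 ± 0.13; limma, adjusted p = 0.000549) and the IL-7 receptor gene Il7r (1.11 ± 0.14, adjusted p = 0.00341). Il7r was at 133 RPKM in CD8 Treg, 45.1 and 52.9 RPKM in CD4 Treg, and 68.8 and 66.1 RPKM in CD49lo. Both genes that fell in CD4 Treg against CD49lo, Il7r and the chemokine receptor gene Cxcr3, were higher in CD8 Treg than in CD4 Treg.

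Of 12 inhibitory receptor and exhaustion genes tied to Tox, 7 fell in CD8 Treg against CD49lo (median −1.36), 6 rose and 3 fell in CD4 Treg against CD49lo (median 0.70), and 2 rose and 8 fell in CD8 Treg against CD4 Treg (median −1.81). Pdcd1, which encodes PD-1, was at 2.05 RPKM in CD8 Treg, 30.8 and 48.5 RPKM in CD4 Treg, and 17.8 and 12.3 RPKM in CD49lo, and fell in CD8 Treg against CD49lo, at −2.47 ± 0.33 (SE; limma, adjusted p = 0.00436). Lag3, another inhibitory receptor gene, fell there too, at −2.56 ± 0.24 (adjusted p = 0.00103), with 2.47 RPKM in CD8 Treg, 23.5 and 26.2 RPKM in CD4 Treg, and 20.1 and 17.0 RPKM in CD49lo. CD8 Treg was the lowest library for Tox and for both receptors, but not for every receptor gene of the list. The 3 that fell in CD4 Treg against CD49lo were Cd244 (−4.1 ± 0.46), Cd160 (−2.21 ± 0.27) and Havcr2 (−2.94 ± 0.42). Each of these was lowest in CD4 Treg replicate 2. Cd160 and Cd244 were also the 2 that rose in CD8 Treg against CD4 Treg, at 2.45 ± 0.33 and 2.22 ± 0.56. Among the genes that rose in CD4 Treg, Ctla4 (3.55 ± 0.22, adjusted p = 1.15e-05) and the Helios gene Ikzf2 (3.92 ± 0.13, adjusted p = 4.72e-07) also belong to the usual CD4 Treg programme.

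For Hobit and its partner Blimp-1, 8 genes kept high in resident cells and 6 egress genes repressed in them were read. Of the 8, 1 rose and 1 fell in CD8 Treg against CD49lo (Cd69 and Itga1), 3 rose and 4 fell in CD4 Treg against CD49lo, and 3 rose and 3 fell in CD8 Treg against CD4 Treg, with medians of −0.40, −0.95 and 0.48. Of the 6 egress genes, 1 rose in CD8 Treg against CD49lo, 2 rose and 2 fell in CD4 Treg against CD49lo, and 3 rose in CD8 Treg against CD4 Treg, with medians of 0.47, −0.24 and 0.56. The residency genes went apart: Cxcr6, a chemokine receptor gene, was at 43.7 RPKM in CD8 Treg, 1.96 and 0.777 RPKM in CD4 Treg, and 30.2 and 47.6 RPKM in CD49lo, whereas Itgae, which encodes CD103, was at 5.31 RPKM in CD8 Treg, 61.3 and 68.9 RPKM in CD4 Treg, and 19.9 and 10.4 RPKM in CD49lo. Prdm1, which encodes Blimp-1, was at 1.96 RPKM in CD8 Treg, 8.36 and 8.46 RPKM in CD4 Treg, and 5.05 and 7.41 RPKM in CD49lo, and fell in CD8 Treg against both CD49lo (−1.31 ± 0.26; limma, adjusted p = 0.0238) and CD4 Treg (−1.76 ± 0.26, adjusted p = 0.00209).

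Of 6 cytokine genes tied to Bhlhe40, 4 were tested. In CD4 Treg against CD49lo, 1 rose (Il10) and 2 fell (Il1b and Ifng), and in CD8 Treg against CD4 Treg, 1 rose (Il1b) and 1 fell (Il10), with medians of −2.28 and 1.5, and the median in CD8 Treg against CD49lo was −0.80. Il10, which Bhlhe40 restrains, was at 0.251 RPKM in CD8 Treg, 4.80 and 7.01 RPKM in CD4 Treg, and 0.365 and 0.930 RPKM in CD49lo. The gene of interferon gamma, Ifng, was at 5.18 RPKM in CD8 Treg, 1.60 and 1.37 RPKM in CD4 Treg, and 11.8 and 31.4 RPKM in CD49lo, and did not pass in CD8 Treg against CD49lo (−1.67 ± 0.56; limma, adjusted p = 0.14). Il1b is chiefly a myeloid transcript, and most myeloid markers given above moved the same way in both comparisons with CD4 Treg. In CD8 Treg against CD49lo, Il1b was at −1.09 ± 0.51 and did not pass, and the median of the myeloid markers was −0.08. The part of myeloid transcripts in the Il1b values was not tested.

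Of 8 genes known as targets of Zeb repression, 4 were tested. Cd4 was the gene that fell in CD8 Treg against CD49lo (−1.27 ± 0.15; limma, adjusted p = 0.00251). In CD4 Treg against CD49lo 3 rose (Cd4, Gata3 and Epcam) and 1 fell (Cdh1), and in CD8 Treg against CD4 Treg 1 rose (Cdh1) and 2 fell (Cd4 and Gata3). The medians were 0.00, 1.57 and −1.22. Cd4 and Gata3 also mark the CD4 lineage. Cdh1, the E-cadherin gene, was at 1.52 RPKM in CD8 Treg, 0.0364 and 0.083 RPKM in CD4 Treg, and 1.95 and 1.75 RPKM in CD49lo, and so was lowest where Zeb2 was lowest.

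Among 18 paralogues and partners of the 8 factors, 17 were tested. Against CD49lo, 1 rose and 5 fell in CD8 Treg (median −0.29), in CD4 Treg against CD49lo 4 rose and 3 fell (median 0.22), and in CD8 Treg against CD4 Treg 4 rose and 7 fell (median −0.45). Id2, an inhibitor of E proteins that supports effector CD8 T cells, fell in CD8 Treg against CD49lo, at −2.21 ± 0.19 (SE; limma, adjusted p = 0.00067), with 40.8 RPKM in CD8 Treg, 19.3 and 23.4 RPKM in CD4 Treg, and 189 and 232 RPKM in CD49lo. The other genes that fell there were Runx1, the activation-induced genes Nr4a1 and Irf4, and Prdm1, and the gene that rose was Stat4, which carries IL-12 signals (0.80 ± 0.17, adjusted p = 0.0309). Nr4a1 was at 8.65 RPKM in CD8 Treg, 36.9 and 34.8 RPKM in CD4 Treg, and 17.6 and 20.3 RPKM in CD49lo, the same order of populations as Tox2.

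Genes with the most similar profiles were found by the distance between centred log2 profiles over the 5 libraries, among 10551 genes. For Eomes these included Atp8b4, at a distance of 0.44, the neonatal Fc receptor gene Fcgrt at 0.67 and Ctla2b at 0.71, and Tbx21 came in place 13 at 1.05. For Tbx21 they included Wdr95 at 0.29, Haao at 0.40 and the pleckstrin gene Plek at 0.56, and Eomes came in place 30. Plek was at 69.0 RPKM in CD8 Treg, 1.69 and 2.02 RPKM in CD4 Treg, and 58.5 and 62.1 RPKM in CD49lo.

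The genes nearest to Zeb2 were Smpdl3b at 0.41, Rnase6 at 0.67, the galectin-3 gene Lgals3 at 0.71 and Apol7c at 0.76. Of the other members Zfp683 was closest to Zeb2, in place 96 at 1.80, and Tbx21 came in place 130 at 2.01. Lgals3, abundant in macrophages, was at 5.80 RPKM in CD8 Treg, 0.909 and 0.907 RPKM in CD4 Treg, and 43.4 and 64.3 RPKM in CD49lo. For Zeb1, whose profile varied less than that of Zeb2, the nearest were Metap1d at 0.08, Dph7 at 0.13, and Tmem63a and Zkscan17 at 0.15. These distances describe 5 libraries in which depth and cell composition are shared by all genes.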

How the data were processed

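RNA from 5 sorted spleen libraries was measured by sequencing. Per the submitters' processing notes, CASAVA and STAR were used with mm10 (versions not given); the counter, annotation and strand setting are not given in the sources used here. The authors deposited RPKM per gene, and 100% of the values were whole reads within a tolerance of 0.02 once scaled by gene length and depth, so reads could be recovered. Everything after that was computed here. Genes with 15 reads in total and, in some library, 10 reads once scaled to the median depth were kept (13298 of 35275). Scaling used TMM factors (trimmed means of log ratios) from the recovered reads, and the values were fitted as log2(RPKM + 0.5) with limma 3.58.1 in R 4.3.3, in 3 groups with 2 residual degrees of freedom and a prior that follows mean log2 RPM, with two-sided Benjamini-Hochberg adjusted p-values. The script was tested on simulated data. The 8 genes, the lists and the markers were chosen with earlier results of these data known. All 8 genes are named in each comparison, and up to 6 genes of each list with the smallest adjusted p. The marker genes Fcer1g, Klrb1c, Klre1, Lyz2, Ncr1, Tyrobp and Tcrg-C2 were chosen after their values were seen. So were list genes named to account for a count. A few list genes and similar-profile genes are not reported here. Alternatives changed the added value, filter, scaling, prior, test, replicate block and libraries. Intervals on reads and the floor of 3 reads cover counting error only. Raw reads are not analysed here.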

Additional observations from a re-analysis of the deposited data

How the results depend on the processing

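Of the 24 tests of a gene in a comparison, 15 passed. Of these, 5 passed in every alternative that kept all libraries and 5 in every fit without 1 library, and 4 in both, namely Eomes and Tbx21 in CD4 Treg against CD49lo and in CD8 Treg against CD4 Treg. With no filter on reads, 21346 genes were tested. Limma then called 582 genes and 0 of the 8 in CD8 Treg against CD49lo. It called 685 genes and 2 of the 8 in CD4 Treg against CD49lo. In CD8 Treg against CD4 Treg it called 1291 genes and 3 of the 8. In CD8 Treg against CD49lo, a filter of 1 RPKM in every library of a group gave 354 genes and 0 of the 8, and a prior that follows mean log2 RPKM gave 350 genes and 1 of the 8; the cause was not tested. Tbx21 in CD8 Treg against CD49lo turned to −0.14 without the scaling factor and ranged from −0.34 to 0.34 in the fits without 1 library. Eomes passed there by limma-voom, and Zfp683 passed in CD8 Treg against CD4 Treg with 0.1 added. Values of genes near 0 moved with the added value and with limma-voom, from −6.51 to −4.33 for Zeb2 and −5.54 to −2.49 for Zfp683 in CD4 Treg against CD49lo, from 2.12 to 4.09 for Zeb2 and 1.2 to 3.90 for Zfp683 in CD8 Treg against CD4 Treg, and from −2.19 to −1.02 for Tox2 in CD8 Treg against CD49lo. Leaving out 1 library left 1 residual degree of freedom. Genes called were then 0 to 146 in CD8 Treg against CD49lo, 438 to 1386 in CD4 Treg against CD49lo and 161 to 871 in CD8 Treg against CD4 Treg, and of the 8 genes 0 to 0, 3 to 5 and 2 to 4. The 0 came without CD49lo replicate 1, where limma had 2209 genes at an unadjusted p under 0.05.

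The labels do not say whether CD4 Treg and CD49lo libraries with the same replicate number belong together. The differences between replicates had a Pearson r of −0.0203 over 13298 genes. That value cannot settle the question, since pairs with small shared effects could give it too. With the number as a replicate block, on the 4 replicated libraries, 3554 genes and all 8 of the 8 were called in CD4 Treg against CD49lo, against 3049 genes and 7 of the 8 without it, and Bhlhe40 was −0.68 (limma, adjusted p = 0.000409). The blocked fit left 1 residual degree of freedom. Its adjusted p was 2.11e-107 for Eomes and 1.95e-98 for Tbx21 (limma). Values so small from 4 libraries are not credible, so the added calls carry no weight. The block is not read as a design of the study. With a single CD8 Treg library, its own spread cannot be measured.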

Other observations

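Beyond Eomes and Tbx21, 15 other T-box genes were listed, of which 12 had too few reads to be tested. Of the 3 tested, 1 passed: Mga, a broadly transcribed gene that also carries a MYC-related domain, rose in CD4 Treg against CD49lo by 0.64 ± 0.11 on the log2 scale (SE; limma, adjusted p = 0.00255). It was at 12.2 RPKM in CD8 Treg, 16.1 and 15.6 RPKM in CD4 Treg, and 9.85 and 10.4 RPKM in CD49lo. Gamma-delta T cell markers (4 of 6 listed were in the table) summed to 17.7 RPKM in CD8 Treg, 7.87 and 6.04 RPKM in CD4 Treg, and 25.5 and 103 RPKM in CD49lo, so that CD49lo replicate 2 stood apart in these too. Of that sum, the receptor constant segment Tcrg-C2 made up 12.8 RPKM in CD8 Treg, 0.961 and 2.56 RPKM in CD4 Treg, and 21.7 and 84.8 RPKM in CD49lo. Plasma cell markers (3 of 4 in the table) summed to 21.7 RPKM in CD8 Treg, 39.5 and 42.4 RPKM in CD4 Treg, and 41.9 and 36.5 RPKM in CD49lo, and 8 markers of red cells and platelets to 16.2 RPKM in CD8 Treg, 16.9 and 4.25 RPKM in CD4 Treg, and 31.3 and 68.5 RPKM in CD49lo.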
